A study of Homo sapiens with 12 samples.

Results

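Zinc finger genes of the ZNF family, with symbols of ZNF followed by digits, held 412 of the 48428 autosomal regions captured in a G-quadruplex pull-down from HEK 293T DNA. This human line was derived from embryonic kidney and expresses the large T antigen of SV40. The members were chosen by position alone: a peak counted when its centre fell inside a gene locus under 500000 bases that holds at least 1 such gene. Loci were the merged gene intervals given in the RNA tables, so a ZNF locus can hold other genes too. This gave 391 loci with 465 ZNF symbols over 24.2 Mb, and the 30580 autosomal loci of the same length limit without a ZNF symbol served for comparison. Each locus lies apart from the others, so no peak was counted in more than 1 of them.

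The question of the series was which genomic sites a small molecule pulls down as G-quadruplexes, and how gene expression changes when the compound PDP, known here by its code name alone, is added. Its 12 samples formed 6 groups of 2. The groups were pull-down from annealed genomic DNA, its input DNA, RNA of cells kept with PDP at 1 µM until 3 h, 24 h or 72 h, and RNA of cells given DMSO until 3 h. The labels name no treatment of the cells behind the pull-down, and they do not say whether PDP is the molecule used for capture or whether replicates came from separate cultures. The peak list combines both pull-down replicates and the RNA tables pool theirs, so no value per library, no SD and no depth can be given. Intervals below are 95% intervals that cover counting error or, for medians, the spread between genes. Those of a fit were scaled by a dispersion pooled over all loci in it, which was not estimated for ZNF loci alone. None covers variation between replicates. Marker genes of this line were present in DMSO cells, with 7 of 8 at 1 FPKM or more and PAX2 at 0.896 FPKM, while 7 markers of blood, liver, endothelium and fibroblasts reached at most 0.0869 FPKM.

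G-quadruplexes are stacked quartets of guanine that can form where several runs of guanine lie close together, and purified, annealed DNA carries no chromatin. Most ZNF genes encode proteins whose array of zinc-binding fingers reads DNA. Many also carry a KRAB domain, which recruits TRIM28 and through it SETDB1, a histone methyltransferase that silences transposable elements. The family grew by tandem duplication and fills large clusters on chromosome 19, and the last exon of a typical member encodes the whole finger array.

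The sequence at the start of 5 of these genes is shown first, as examples of guanine runs of the kind that can form a G-quadruplex, chosen for holding the motif. The letters come from RefSeq on GRCh38.p14, 5′ to 3′ along the gene, and capitals mark a motif of 4 runs of at least 3 G, or 3 C for the other strand, with loops of 1 to 7 bases. All stretches lie within the 250 bases upstream of a start, in genes of the loci with the most or the densest peaks.

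ZNF536, chr19:30227641-30227689, plus strand: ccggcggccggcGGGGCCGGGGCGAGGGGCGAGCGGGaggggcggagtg
ZNF423, chr16:49664332-49664382, minus strand: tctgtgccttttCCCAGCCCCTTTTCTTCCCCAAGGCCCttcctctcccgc
ZNF644, chr1:91021623-91021679, minus strand: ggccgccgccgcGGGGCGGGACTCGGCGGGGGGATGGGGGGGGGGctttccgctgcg
ZNF281, chr1:200410156-200410206, minus strand: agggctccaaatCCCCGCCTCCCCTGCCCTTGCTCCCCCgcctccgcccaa
ZNF616, chr19:52140113-52140164, minus strand: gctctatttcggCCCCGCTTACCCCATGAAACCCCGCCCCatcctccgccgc

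No peak lay on any of these 5 motifs. The nearest peak centre was 3900 bases downstream of the start at ZNF536, 3124 downstream at ZNF423, 8019 downstream at ZNF644 and 1223 downstream at ZNF616, and upstream at ZNF281, at -3838 bases from the start. Of 20 ZNF genes in the named loci, 17 matched a RefSeq window, and 8 of their 22 windows held the motif upstream of the start.

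Over the whole family, ZNF promoters held this motif less often than other promoters and none of them overlapped a peak. The motif, searched on both strands over 250 bases before to 50 after each start, was in 89 of 493 windows of 391 ZNF symbols (18.1%, exact binomial interval 14.8 to 21.7). It was in 6342 of 20663 windows of other protein-coding genes (30.7%, 30.1 to 31.3) and in 24.9% of all 33725 promoter windows. On chromosome 19 the shares were 18.9% for ZNF genes and 38.2% for other protein-coding genes. Median GC content was 61.3% in ZNF windows and 62.7% in the others. With loops of up to 12 bases the motif was in 38.9% of ZNF windows and 45.6% of the others. A gene can have several starts and so several overlapping windows, which makes these intervals too narrow.

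Peaks were rare at starts of either class. A peak overlapped 0 of 493 ZNF windows, a share with an exact binomial upper limit of 0.745%, and 104 of 20663 windows of other protein-coding genes, a share of 0.503%. A difference was therefore not detectable at this number of windows. Among all 33725 promoter windows, a single one was reached by a member peak, that of ZSCAN22, a zinc finger gene of the SCAN class in the locus of ZNF544 and ZNF8. Its peak, chr19:58326357-58326759 with a score of 19.6, covered the first 16 bases of the window, given below in capitals on the plus strand, and the window held no motif of the kind above. It is shown because it is the one place where letters under a member peak were at hand.

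ZSCAN22, chr19:58326744-58326803: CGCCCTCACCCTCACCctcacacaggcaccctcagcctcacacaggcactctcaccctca

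Peak density around ZNF starts lay below that around other starts on both flanks. From 10000 to 2000 bases upstream it was 16.5 peaks per Mb (exact Poisson interval 12.7 to 21.0) for ZNF genes and 23.3 (22.6 to 24.1) for other protein-coding genes. From 2000 to 10000 bases downstream the densities were 16.7 (12.9 to 21.3) and 22.1 (21.4 to 22.8). Within 1000 bases of the start they were 14.2 (7.76 to 23.8) for ZNF genes and 14.8 (13.6 to 16.01) for the others. The dip at the start of other genes was therefore seen against higher flanks, while the ZNF values at the start and on the flanks have overlapping intervals. A peak near several starts, of the same gene or of neighbours, was counted once for each, so these intervals are too narrow. The comparison was not matched by chromosome.

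**Figure D1:**
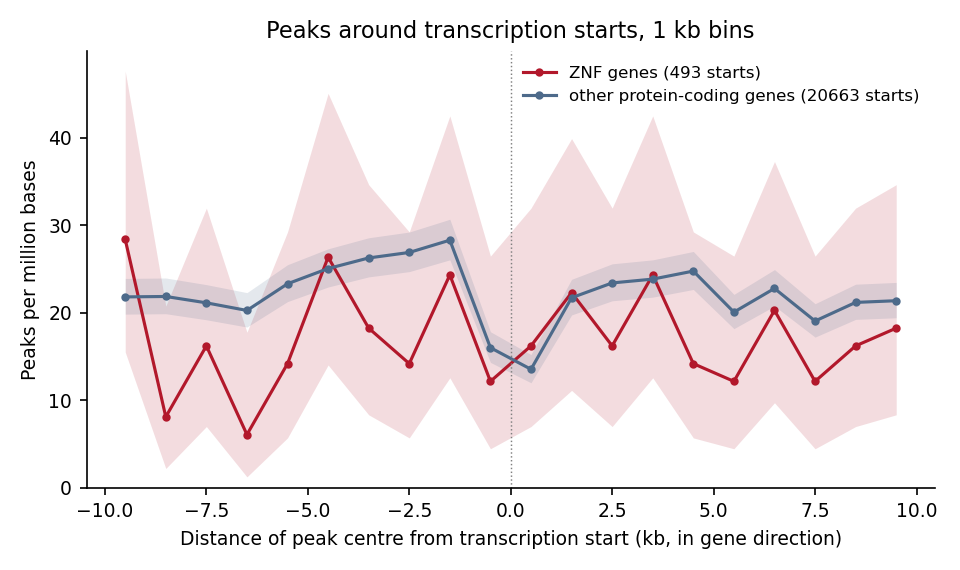
Peak centres per Mb in 1 kb bins by distance from the transcription start in kb, negative upstream, for 493 ZNF starts (red) and 20663 starts of other protein-coding genes (blue); bands are 95% Poisson intervals. The blue line drops beside the start, where it averages 14.8 peaks per Mb, and the red line lies below it in most bins on both flanks with wide bands.

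Across whole loci, ZNF loci held somewhat fewer peaks for their length than other loci. Density was 17.0 peaks per Mb (15.4 to 18.7) in ZNF loci and 19.6 (19.3 to 19.8) in other loci, a ratio of 0.869 (exact binomial interval 0.786 to 0.958). At least 1 peak was found in 176 of 391 ZNF loci (45.0%, 40.0 to 50.1) and in 8731 of 30580 other loci (28.6%). ZNF loci are longer, with a median of 34435 bases against 6492 bases in other loci. The shortfall was clearest in loci of middle length. ZNF loci of 10 to 100 kb held 158 peaks in 297 loci, a density of 14.1 (11.97 to 16.5), against 20.4 in other loci of that length, a ratio of 0.688 (0.584 to 0.806). Loci of 100 to 500 kb had 19.5 peaks per Mb in 67 ZNF loci and 19.2 in other loci, a ratio of 1.01 (0.892 to 1.15). The intervals of these length classes do not overlap. Of the 249 peaks in ZNF loci of 100 to 500 kb, 29 lie in the ZNF536 locus, and this split was not repeated without it. A quasi-Poisson fit over all 30971 loci with chromosome and length class as terms gave a ratio of 0.822 (0.746 to 0.905), and 0.665 (0.559 to 0.791) over loci of 10 to 100 kb.

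**Figure D2:**
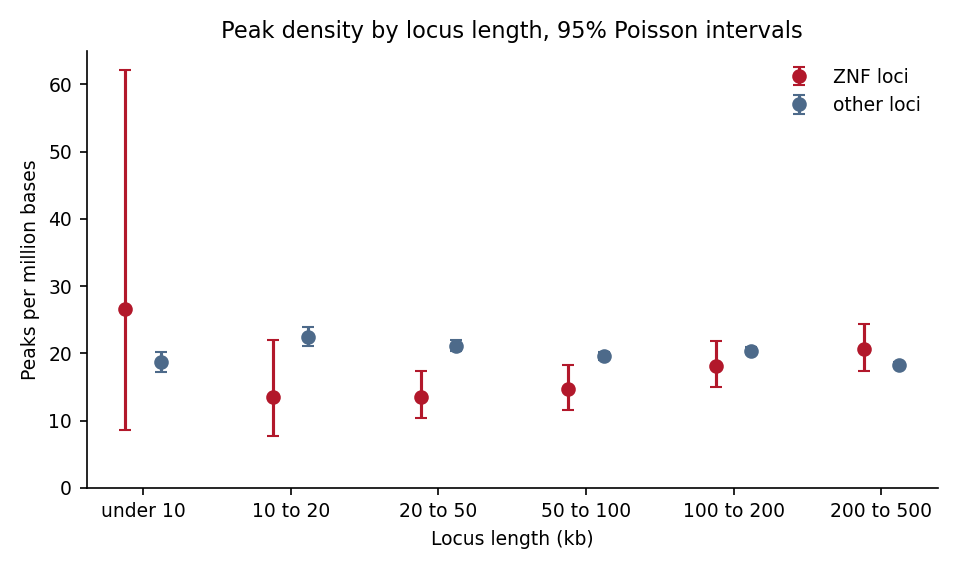
Peaks per Mb by locus length in kb for ZNF loci (red, left in each pair) and other loci (blue); bars are 95% Poisson intervals. ZNF loci lie below other loci in the classes from 10 to 100 kb, while the under 10 class rests on 5 peaks in 27 ZNF loci.

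The ratio differed between chromosomes. Chromosome 19 carries 179 of the 391 loci, 240 ZNF genes and 163 of the member peaks (39.6%), and its ratio was 0.751 (0.629 to 0.893), from 17.5 peaks per Mb in ZNF loci and 23.3 in other loci. Among the 11 chromosomes with at least 10 member peaks, 5 had a ratio below 1 and 6 above 1. The interval lay below 1 on chromosome 19 and on chromosome 7, where 32 ZNF loci held 12 peaks and the ratio was 0.438 (0.226 to 0.769). It lay above 1 on chromosome 3, where 16 ZNF loci held 40 peaks and the ratio was 1.51 (1.07 to 2.07). Loci of 10 to 100 kb had a ratio of 0.576 (0.443 to 0.739) on chromosome 19 and 0.740 (0.591 to 0.917) on the other autosomes.

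Within chromosome 19, ZNF loci of the tandem clusters held fewer peaks for their length than the ZNF loci outside them, among which ZNF536 held the most peaks. Clusters were drawn by joining ZNF loci less than 500000 bases apart, which gave 10 clusters of at least 5 loci with 167 loci in all. These held 112 peaks, 14.1 per Mb (11.6 to 17.0), while the 12 ZNF loci outside them held 51 peaks, 37.4 per Mb (27.9 to 49.2), of which 29 lie in the ZNF536 locus. Without ZNF536 the loci outside clusters had 25.3 per Mb (15.9 to 38.4), an interval that overlaps that of the clusters. Loci without a ZNF gene inside the cluster spans had 18.1 peaks per Mb (13.2 to 24.2), and those elsewhere on the chromosome 23.8 (22.0 to 25.7). The largest cluster by length, from ZNF101 to ZNF254 at chr19:19668796-24129961, had 19 peaks in 32 loci, 9.17 per Mb (5.52 to 14.3). Other loci in its span had 10.4 per Mb (4.17 to 21.4), so the low density was not limited to its ZNF loci. The densest cluster, ZNF628 to ZNF835, reached 29.0 per Mb (15.9 to 48.7) with 14 peaks. The clusters ZNF554 to ZNF77 and ZNF807 to ZNF792 held 0 peaks in 5 and 6 loci, over lengths that allow up to 41.6 and 57.6 per Mb.

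The peaks of chromosome 19 also differed in score, the authors' own value per peak, averaged over both replicates and of unstated unit. Members there had a median score of 10.5 (quartiles 9.03 and 13.7, 163 peaks), against 14.7 (10.7 and 21.3, 671 peaks) for peaks of other loci on the chromosome. A score above 14.2, the upper quartile of all autosomal peaks, was reached by 23.9% of the members (17.6 to 31.2) and by 52.6% (48.8 to 56.4) of peaks in other loci. It was reached by 13.4% (7.69 to 21.1) in ZNF loci of the clusters, 47.1% (32.9 to 61.5) in ZNF loci outside them, 37.8% (23.8 to 53.5) in other loci of the cluster spans and 53.7% (49.7 to 57.6) in other loci outside the spans. The lower score was seen in both length classes with enough peaks, with medians of 10.4 and 15.4 in ZNF and other loci of 10 to 100 kb, and 10.5 and 13.8 in those of 100 to 500 kb. Leaving out ZNF536 gave a median of 10.4 for members on the chromosome. On the 10 other chromosomes with at least 10 member peaks, the median of members was lower than that of other loci on 6 and higher on 4, by differences from -2.45 to 3.40.

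**Figure D3:**
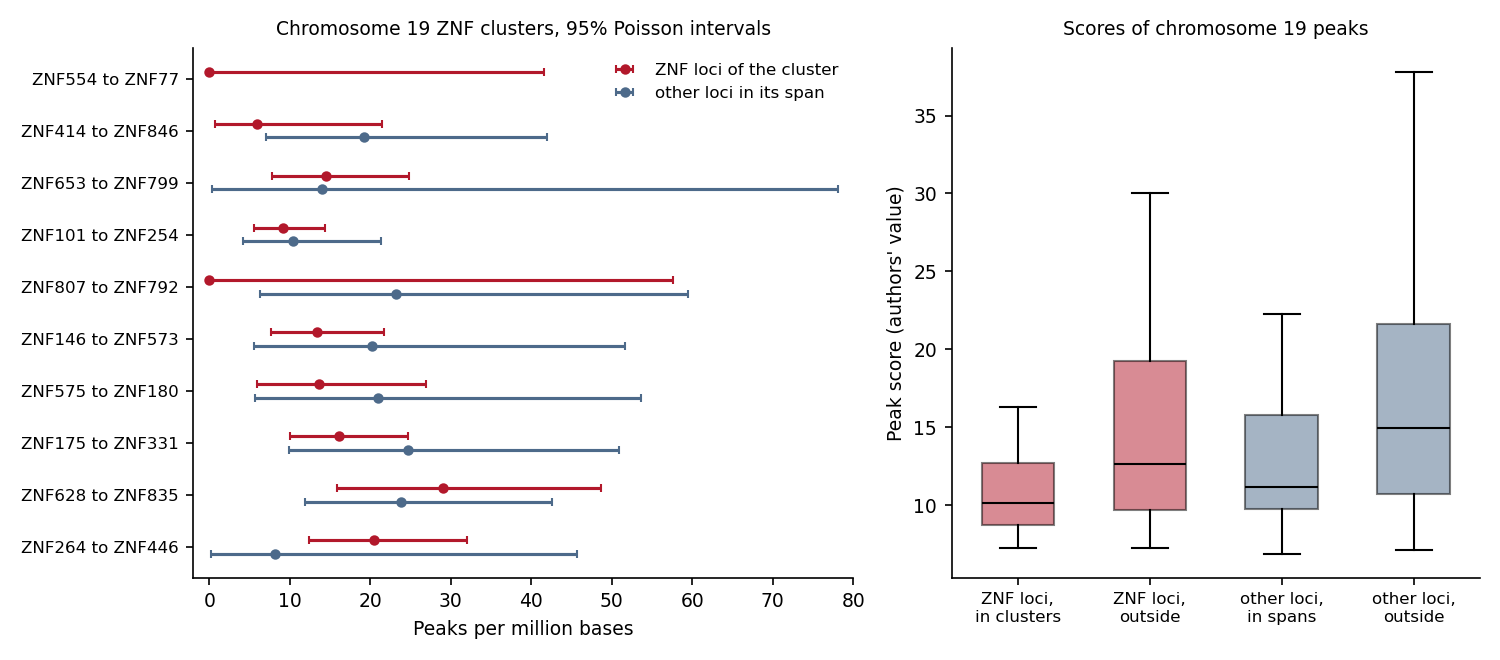
Left, peaks per Mb in the ZNF loci of each chromosome 19 cluster (red) and in other loci of the same span (blue, drawn where a span holds at least 7 of them), with 95% Poisson intervals. Right, scores of chromosome 19 peaks by place, with boxes for quartiles, lines for medians and whiskers for the range within 1.5 box lengths; the box of ZNF loci in clusters is the lowest, with a median of 10.2.

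Genome-wide the scores of members differed little from those of other peaks. The median was 10.5 (quartiles 8.96 and 13.6, range 7.29 to 52.2) for the 412 members and 10.9 (9.10 and 14.1) for peaks of other loci. That upper quartile was passed by 97 members, 23.5% of them, against 24.1% of peaks in other loci. A score above 19.55 was reached by 42 members, 10.2% of them, and by 9.69% of peaks in other loci. Members made up 0.851% of all autosomal peaks. The 100 highest of these peaks held 0 members, the highest 500 held 2 and the highest 1000 held 5, so these counts rest on few members. Peak width had a median of 412 bases in ZNF loci and 408 in other loci.

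The strongest member lay at chr19:11464662-11465148 in the locus of ZNF653, which also holds ELAVL3, a gene of a neuronal RNA-binding protein, and ECSIT. Its score was 52.2, rank 111 among all autosomal peaks, and it was number 10 on its chromosome in the list of each replicate. The next, in the ZNF114 locus, scored 38.5 and was number 19 in replicate 1 and 117 in replicate 2. It was followed by peaks in the loci of ZNF319 (34.5), ZNF704 (34.2), ZNF454 (34.1) and ZNF662 (31.4), a pair in ZNF536 (30 and 29.6), another in ZNF662 (29.0) and one in ZNF511 (28.6). The running number, which falls as the score rises, was the only value kept for each replicate. Its Spearman correlation between replicates on chromosome 19 was 0.583 over the 163 members and 0.799 over all 1194 peaks, and the scores of members there have a narrower range between quartiles.

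A few long loci held much of the set. Peaks per locus ran from 0 in 215 loci, 1 in 92 and 2 in 38 up to 29, and the 10 loci with the most peaks held 109 peaks, 26.5% of members in 12.5% of the ZNF locus length. ZNF536 encodes a brain-enriched repressor of neuronal differentiation, described in mouse cells. Its locus, chr19:30219666-30713538, held 29 peaks or 58.7 per Mb (39.3 to 84.3). They were spread along its length, with 5, 6, 8, 5 and 5 peaks in 5 successive stretches of equal length, a median gap of 13896 bases and scores from 7.29 to 30. ZNF423, a cofactor of SMAD and EBF proteins, had 16 peaks at chr16:49487524-49857919, or 43.2 per Mb (24.7 to 70.1), with 3, 4, 4, 2 and 3 in such stretches. Without ZNF536 the density ratio of ZNF to other loci was 0.824, and without both loci it was 0.803.

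**Figure D4:**
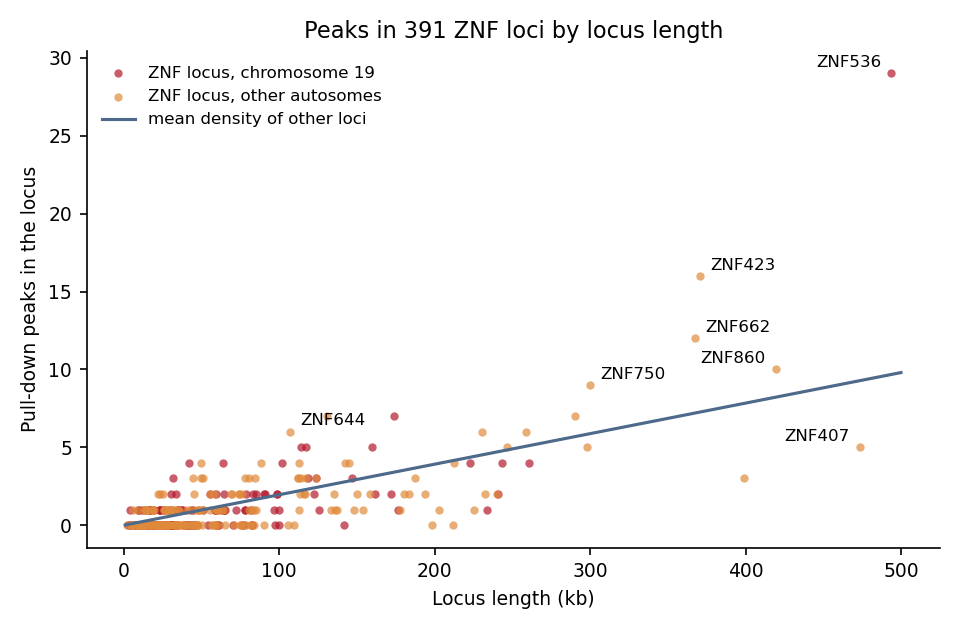
Peaks in each of the 391 ZNF loci by locus length in kb, on chromosome 19 (red) and other autosomes (orange); the line is the mean of other loci, 19.6 peaks per Mb. ZNF536 with 29 peaks and ZNF423 with 16 stand above the line, and ZNF407 with 5 lies below it at nearly the same length as ZNF536.

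Other loci with many peaks often owed length to neighbouring genes. The ZNF662 locus had 12 peaks among 18 genes, that of ZNF860 had 10 and includes OSBPL10, a sterol-binding protein gene, and that of ZNF750, a regulator of epidermal differentiation, had 9 and includes TBCD, a tubulin cofactor. The shared locus of ZNF197, ZNF35 and ZNF660 had 7 peaks, 53.7 per Mb (21.6 to 110.6). ZNF582 and ZNF521 had 7 each, the second a cofactor that antagonises EBF1 in progenitor cells. ZNF644, a partner of the G9a histone methyltransferase and alone in its locus, had 6 peaks at 56.1 per Mb (20.6 to 122.1). ZNF281, a factor that binds GC-rich promoters, also had 6. By density the highest were ZNF264 with 3 peaks at 95.7 per Mb (19.7 to 279.7) and ZNF507 with 4 at 95.1 (25.9 to 243.4), whose intervals overlap those of all loci named here by density. They were followed by ZNF740 (80.6), ZNF362 (67.9), ZNF616 with ZNF836 (62.6), ZNF621 (60.2) and ZNF26 (58.99).

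Long loci without a peak were also found. ZNF438 held 0 peaks in 211731 bases, which allows up to 17.4 per Mb, and ZNF214 with ZNF215 held 0 in 198427 bases. ZNF98 in the ZNF101 to ZNF254 cluster held 0 in 141467 bases. At the length limit, ZNF536 at 493873 bases was the longest locus inside it and ZNF664, at 553837 bases with 19 peaks and 34.3 per Mb, the shortest outside. Density was 15.5 per Mb (11.8 to 20.01) in 149 loci with the ZNF gene alone, 17.6 (15.6 to 19.8) in 194 loci with 1 ZNF gene among others and 16.3 (12.8 to 20.4) in 48 loci with several ZNF genes, so the 3 kinds have overlapping intervals.

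ZNF genes listed for a known function, beyond those above, had 0 to 5 peaks in their loci. ZNF91 and ZNF93, repressors of SVA and L1 retroelements, lie in loci with 2 peaks and 1 peak. ZNF274, which brings SETDB1 to the ends of other ZNF genes, had 2 peaks in 30534 bases, and ZNF10, source of the KRAB domain used in CRISPR interference, had 3. ZNF445, a keeper of imprinted methylation, had 0, as did the imprinted gene ZNF331, while the locus of imprinted ZNF597 had 4. ZNF143, an activator that binds promoters, had 2, ZNF148 had 2 and ZNF263 had 1. ZNF365, a gene linked to genome stability, had 5 in 297820 bases. ZNF202, a repressor of lipid genes, the amplified oncogene ZNF217 and ZNF24 had 0. ZNF638, an RNA-binding splicing factor, had 2, ZNF609 and ZNF74 had 1 each, and the listed ZNF41 and ZNF804A were not among the loci.

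Peaks in ZNF loci had fewer close neighbours than peaks in other loci. The nearest other peak was a median of 17676 bases away from a member and 15276 from a peak of other loci. A neighbour within 5000 bases was found for 8.98% of members and 13.9% of the others. Among members the share was 20.7% in the ZNF536 locus and 8.09% elsewhere. No interval was computed for these shares, and they were not matched by chromosome, locus length or peak density. Within 1000 bases of a locus end lay 11 of 412 members (2.67%, 1.34 to 4.73), where 3.23% of ZNF locus bases lie, and 2.49% of peaks in other loci, where 3.88% of bases lie. Strand could be assigned from RefSeq in 101 of the 127 ZNF loci of at least 10 kb that hold a single gene. The last 3000 bases of these genes, where the finger exon usually lies, held 1 peak, 3.30 per Mb (0.0836 to 18.4). This value moves with the window, since the last 2000 bases held 0 peaks and the last 5000 held 5, 9.90 per Mb (3.21 to 23.1), beside 11.9 (4.36 to 25.9) in the first 5000. The middle held 37, 17.5 per Mb (12.3 to 24.1), and the first 3000 bases held 4, 13.2 per Mb (3.60 to 33.8). In 3189 other single-gene loci the last 3000 bases had 14.5 per Mb (12.2 to 17.2), the middle 20.6 and the first 21.4. The intervals of the last stretch overlap between ZNF and other genes, so a difference was not detectable with so few peaks.

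Peak density of ZNF loci was alike above and below 1 FPKM. In DMSO cells, 357 of the 466 ZNF gene IDs had at least 1 FPKM, with ZNF207, a spindle protein, highest at 159 FPKM. ZNF loci whose highest ZNF gene had at least 1 FPKM held 17.0 peaks per Mb (325 peaks) and the remaining ZNF loci also 17.0 (13.6 to 20.9, 87 peaks), against 20.2 and 18.6 in other loci split by their highest gene. The median level was 4.75 FPKM for 229 ZNF genes in loci with a peak and 3.88 FPKM for 237 in loci without one. These levels are FPKM, which allows for length, and ZNF genes have close paralogs between which reads can be split, so single levels are uncertain.

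With PDP more ZNF genes were called lower than higher at 24 h and 72 h, at q under 0.05 in the authors' deposited tables. The 3 h values gave 0 calls in either direction among 372 tested ZNF genes in the authors' deposited table, against 0.115% of all genes (0.108% higher and 0.00678% lower), and 4 had an unadjusted p under 0.05. The authors' deposited table for 24 h called 43 of 372 ZNF genes lower (11.6%), against 8.29% of all genes, and 11 higher (2.96%), against 9.21%. In either direction it called 54 of 372 ZNF genes at q under 0.05, against 17.5% of all genes. At q under 0.01 it called 28 of 372, against 9.89%. As counted, these shares were below those of all genes, but no interval was computed for them and the difference was not tested. By 72 h, 108 of 370 were called lower in the authors' deposited table (29.2%, 24.6 to 34.1), against 12.8% of all genes, and 36 higher (9.73%), against 19%. The median log2 fold change of expressed ZNF genes was 0.04, -0.28 and -0.40 at the 3 times in order, beside -0.0036, -0.03 and 0.11 over all expressed genes. At 72 h the median was -0.30 (-0.49 to -0.14) for ZNF genes in loci with a peak and -0.50 (-0.68 to -0.35) without. With a minimum of 5 FPKM it was -0.079 (-0.22 to 0.12) with a peak, an interval that includes 0. Without a peak it was then -0.26 (-0.41 to -0.094). The intervals with and without a peak overlap at either minimum. With FPKM rescaled to equal sums in both conditions, every log2 value shifted by 0.17 at 24 h and by -0.10 at 72 h, and the ZNF medians became -0.11 and -0.50. All 3 tables use the 3 h control, whose values differ by a constant factor between tables, so the times share it and changes include any over time in culture.

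At 72 h, lower calls were fewer among ZNF genes in loci with a peak. The authors' deposited table called lower 38 of 185 ZNF genes in loci with a peak (20.5%, 14.96 to 27.1) and 70 of 185 in loci without one (37.8%, 30.8 to 45.2), intervals that do not overlap. It called higher 25 ZNF genes with a peak (13.5%, 8.94 to 19.3) and 11 without (5.95%, 3.01 to 10.4), both below the 19% of all genes. In other loci it called lower 10.5% of 8240 genes with a peak in the locus and 15.4% of 5637 without, and higher 18.3% with a peak and 21.2% without, so the higher calls there were ordered the other way. Locus length moved with this split, with medians of 84257 bases for ZNF genes with a peak and 25528 without. In loci under 50 kb the shares of ZNF genes called lower in the authors' deposited table were 32.7% (20.7 to 46.7) with a peak and 40.4% (32.5 to 48.7) without, and in loci of 50 to 500 kb 15.4% (9.66 to 22.8) and 26.5% (12.9 to 44.4). Within each class the intervals overlap. The part of locus length in the pooled difference was not tested further. At 24 h the shares called lower were 11.8% of 187 with a peak and 11.4% of 185 without. Genes of 1 locus share its peaks and are not independent.

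**Figure D5:**
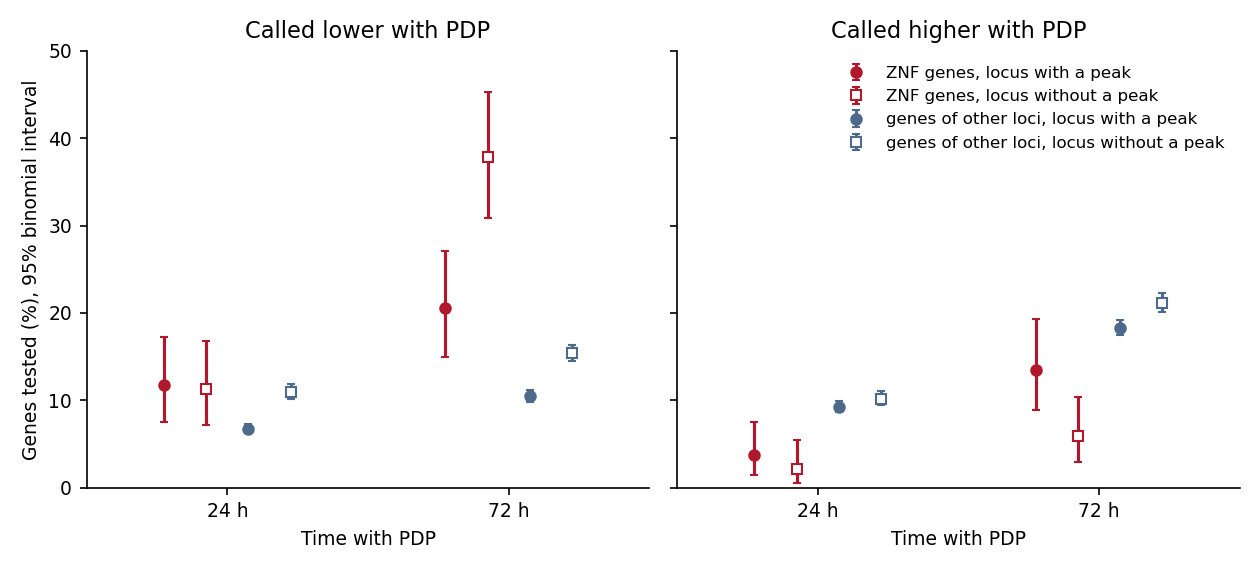
Share of tested genes called lower (left) and higher (right) with PDP at 24 h and 72 h in the authors' deposited tables, for ZNF genes (red) and genes of other loci (blue) with a peak in the locus (filled) and without one (open); bars are 95% binomial intervals. At 72 h 20.5% of ZNF genes with a peak and 37.8% without were called lower.

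Genes of the peak-rich loci moved in both directions. ZNF536 had 3.42 FPKM with PDP and 1.54 FPKM in the control at 72 h, a log2 fold change of 1.15 (SE 0.58, q = 0.0162 in the authors' deposited table), while at 3 h and 24 h it was not called, with 1.02 and 2.34 FPKM with PDP and 1.59 and 1.65 in the control. ZNF521 rose to 5.59 FPKM with PDP at 72 h, against 2.76 in the control (q = 0.0182 in the authors' deposited table). ZNF423 was not called, with 1.26 FPKM with PDP and 0.697 in the control at 72 h. ZNF281 fell to 16.8 FPKM with PDP at 24 h, against 24.4 in the control, and to 11.5 against 22.7 at 72 h. ZNF644 fell to 26.6 FPKM with PDP at 24 h, against 40.2 in the control (q = 0.0467 in the authors' deposited table). It was not called at 72 h, with 29.3 FPKM with PDP and 37.4 in the control. ZNF197 fell to 3.77 FPKM with PDP at 72 h, against 8.99 in the control, and its neighbour ZNF35 to 2.69 against 7.50. ZNF662 was listed at 0 in every condition, and ZNF750 and ZNF860 stayed under 0.15 FPKM and were not tested.

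The largest called decreases and increases lay in loci with and without peaks. ZNF202, with 0 peaks in its locus, fell to 4.63 FPKM with PDP at 24 h, against 13.5 in the control, and to 1.76 against 12.6 at 72 h, a log2 fold change of -2.83 (SE 0.56). ZNF503, a developmental repressor with 4 peaks in its locus, fell to 35.0 FPKM with PDP at 24 h, against 86.4 in the control. ZNF582 with 7 peaks had 0.849 FPKM with PDP and 2.55 in the control at 24 h (log2 fold change -1.59, SE 0.95). It was not called at 72 h, with 1.41 FPKM with PDP and 2.37 in the control. ZNF701 and ZNF566 were the other decreases named at 24 h, and ZNF701, ZNF782, ZNF510 and ZNF225 those at 72 h, when ZNF701 had 0.525 FPKM with PDP and 3.50 in the control. ZNF333, with 5 peaks in its locus, rose to 14.1 FPKM with PDP at 72 h, against 3.46 in the control, a log2 fold change of 2.03 (SE 0.44). ZNF596 with 0 peaks rose to 6.31 FPKM with PDP at 72 h, against 1.51 in the control. ZNF395, a hypoxia-induced factor with 4 peaks, had 38.0 FPKM with PDP and 13.04 in the control at 72 h. ZNF160, ZNF467, ZNF853, ZNF488, ZNF34 and ZNF76 made up the rest of the named increases, and ZNF467 rose at both times, to 5.33 FPKM with PDP against 1.83 in the control at 24 h and to 5.56 against 1.71 at 72 h.

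Partners and more general effectors of KRAB zinc finger proteins were listed from general knowledge. Among them TRIM28 and SETDB1 were not called at any time, while TRIM24, UHRF1 and the SUV39H enzymes fell. Of 25 listed, 23 were tested, and the authors' deposited table called 0 at 3 h, against 0.115% of all genes. At 24 h it called 5 lower (21.7%), against 8.29% of all genes, and 0 higher, against 9.21%. At 72 h it called 7 lower (30.4%), against 12.8%, and 3 higher (13.04%), against 19%. No interval was computed for these shares of 23 genes, and their difference from all genes was not tested. The median log2 fold changes were in time order -0.0002, -0.23 and -0.05. TRIM28, the corepressor that KRAB binds, had 167 FPKM with PDP and 215 in the control at 72 h, and SETDB1 had 42.2 with PDP and 33.0 in the control. TRIM24, a related coregulator, fell to 8.53 FPKM with PDP at 72 h, against 28.5 in the control. UHRF1, which guides DNA methylation upkeep, fell to 37.3 against 84.5, and the histone methyltransferases SUV39H1 and SUV39H2 fell at 24 h and 72 h. MPHOSPH8 and FAM208A, subunits of the HUSH silencing complex, fell to 6.52 and 13.1 FPKM with PDP at 72 h, against 10.9 and 25.4 in the control. SMARCAD1, a chromatin remodeller, fell to 11.6 against 24.2, while HDAC1, a histone deacetylase, rose to 339 FPKM with PDP, against 216 in the control, with CHD3 and CBX1 also called higher.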

How the data were processed

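Pull-down and input DNA was made into libraries with the ThruPLEX DNA-seq kit, and the VAHTS Stranded mRNA-seq kit served for poly(A) RNA, per the labels' protocols. GRCh38.p7, Cufflinks 2.2.1, HISAT2 2.0.5, HOMER 4.9.1, Picard, SAMtools 1.3.1, Bowtie2 2.2.9 and Trim Galore 0.4.4 stand in the submitters' processing notes. Settings, and how reads that match several paralogs were placed, are not given in the sources used here. The peak score in the authors' deposited list is averaged over both replicates, and every listed peak was found in both. The authors' deposited FPKM are pooled over replicates, and their test of PDP against the control gave the p-value and the q-value that the authors deposited.

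Depth per library is unknown. Members, gene lists and comparisons were chosen with earlier results of these data known. The centre placed a peak. Intervals are exact Poisson for densities and exact binomial for shares and for plain ratios of densities, at 95%. Those of medians come from order statistics. Those of the quasi-Poisson fit are normal intervals scaled by its dispersion, 0.90 over all loci and 1.13 over loci of 10 to 100 kb. Log2 fold changes were computed from FPKM, and the test statistic, a score the authors deposited, was divided into them for the SE. The deposited p-values and q-values do not follow from this SE, so it is not the error behind the calls. At 24 h ZNF582 changed by -1.59 with SE 0.95, yet had q = 0.0267 in the authors' deposited table. Expressed genes had a geometric mean of at least 1 FPKM. The named loci were the 10 with the most peaks and the 10 densest of at least 20000 bases and 3 peaks. Named genes were the 5 largest called changes each way at 24 h and 72 h among ZNF genes with at least 1 FPKM in either condition, any called at 3 h, and a list of genes of known function. RefSeq starts on GRCh38.p14 were matched for 392 of 466 ZNF gene IDs, and patch releases leave primary chromosome coordinates in place; in 90 of 101 single-gene loci the start lay within 1000 bases of the locus end. Alternatives covered locus limits, length classes, chromosome 19, score, windows, thresholds, pseudocount and scaling. The density ratio and motif search were tested on simulated data. Software was statsmodels 0.14.6, SciPy 1.17.1, Matplotlib 3.10.9, pandas 2.3.3 and NumPy 2.4.6 under Python 3.11.15.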

Additional observations from a re-analysis of the deposited data

How the results depend on the processing

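Of 65 alternative values, 49 stayed close to the reported ones and 16 moved. A turn of direction was looked for in the density ratio alone, where 0 of 12 alternatives turned. Over the reported setting and 12 alternatives, the density ratio was below 1 in all 13 and its interval in 11. The exceptions were no length limit (0.942, interval 0.854 to 1.04) and loci with a single gene (0.803, 0.609 to 1.04). Leaving out ZNF536, alone or with ZNF423, was among the alternatives and could only lower the ratio. The ratio was 0.768 in loci under 200 kb and 0.751 on chromosome 19 alone. Among peaks above the median score the density was 7.77 per Mb and the median score 14.4. The share of members near a locus end was 5.17% in loci with a single gene, 1.20% without chromosome 19, 4.91% on it, 0.971% within 500 bases and 5.10% within 2000 bases. At q under 0.01 the authors' deposited table called 28 of 372 ZNF genes at 24 h, against 9.89% of all genes, where q under 0.05 gave 54, against 17.5%. Both are smaller shares than those of all genes as counted, with no interval computed and the difference not tested. Median log2 fold changes with a pseudocount of 1 were -0.12 at 24 h for ZNF genes in loci with and without a peak, in place of -0.25 and -0.30, and at 72 h -0.11 with and -0.21 without. With FPKM of at least 5 at 72 h they were -0.079 with (interval -0.22 to 0.12) and -0.26 without (-0.41 to -0.094), which overlap. The reported values were -0.30 with and -0.50 without. ZNF536, ZNF423, the quasi-Poisson fit, scaling, motif loops and windows at gene ends were chosen as alternatives after seeing the data.

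No paired analysis was possible because the RNA tables pool replicates and the peak list holds no score per replicate, and leaving out a replicate was not possible for the same reason. The planned share of peaks with a G-quadruplex motif was not run, since no genome sequence was used. The number of peaks limits what can be said of single loci and of gene ends.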
